A study of Mus musculus with 8 samples.

Results

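Islets make insulin, glucagon and somatostatin from larger precursors, and the genes described here encode the enzymes and granule proteins that cut, trim and package them. The 10 genes are the convertases Pcsk1 and Pcsk2, their binding partners Pcsk1n and Scg5, the carboxypeptidase Cpe, the amidating enzyme Pam, the granins Scg2 and Scg3, and the granule membrane proteins Ptprn and Ptprn2. They were listed by name, with earlier results of these data known, and were found among the array's probes through RefSeq accessions. All 10 were present, with 14 probes between them, among 22911 genes that could be named in this way. Every one of the 14 probes was well above background on all 8 arrays.

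Pancreatic islets of mice aged 11 weeks were compared between 4 control and 4 βFbln5KO RNA extractions of 150 islets each, with 1 one-colour Agilent array per extraction. The control mice carried floxed Fbln5 alleles. The βFbln5KO mice carried the same floxed alleles together with Ins1-cre, in which the mouse insulin 1 promoter drives Cre, so that islet cells other than β-cells retain Fbln5. The question asked here was whether the prohormone processing genes differ between the 2 genotypes. The targeted gene itself, Fbln5, averaged −1.72 ± 0.31 (SD, n = 4) over the control arrays against −2.22 ± 0.59 (SD, n = 4) over the arrays labelled βFbln5KO (log2 signals, limma adjusted p = 0.342), of which replicate 4, at −1.37, was within the control range. Each genotype occupied 1 of the 2 rows of arrays on 1 slide, so that slide position and genotype cannot be told apart. Whole islets were measured, and in such bulk samples fewer cells of a type and less RNA per cell cannot be told apart.

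Peptide hormones are synthesised as prohormones, which enter the regulated secretory pathway and are cut at pairs of basic residues inside maturing granules. Pcsk1 and Pcsk2 make these cuts, Cpe removes the basic residues left at the new carboxyl ends, and Pam converts a terminal glycine into an amide. In β-cells Pcsk1 and Pcsk2 convert proinsulin to insulin, whereas in α-cells Pcsk2 releases glucagon from proglucagon.

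One sequence feature that the choice of genes did not use was looked for in their promoters. The cyclic AMP response element, through which cyclic AMP and calcium signals act on many neuroendocrine genes, has the palindrome TGACGTCA as its full form and TGACG as its short form. RefSeq promoter windows of 250 bases before and 50 bases after the start site (GRCm38.p6) were found for 9 of the 10 genes, Cpe being the gene without one. The full palindrome occurred in the windows of Pcsk1 and Scg2, that is in 2 of the 11 windows of these 9 genes, and in 1.79% of all 32851 windows. The short form, read on both strands and contained in each full palindrome, occurred in 6 of the 11 windows, 1 each of Pcsk1, Pcsk2, Scg2, Scg3, Scg5 and Ptprn, and in 20.8% of all windows. These shares are a description of the letters in the windows, and binding was not measured.

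The stretch from 110 bases before to 10 bases after the start site is shown for Pcsk1 and Scg2, which hold the full palindrome, and for Pcsk2, the partner convertase of Pcsk1, which holds only the short form on the opposite strand. Capitals mark TGACG on either strand. The stretches lie at chr13:75089747-75089866 on the plus strand for Pcsk1, at chr1:79440017-79440136 on the minus strand for Scg2 and at chr2:143546023-143546142 on the plus strand for Pcsk2, all in GRCm38.p6.
Pcsk1: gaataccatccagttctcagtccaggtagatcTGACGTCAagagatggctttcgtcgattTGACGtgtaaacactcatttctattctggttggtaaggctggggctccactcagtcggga
Scg2: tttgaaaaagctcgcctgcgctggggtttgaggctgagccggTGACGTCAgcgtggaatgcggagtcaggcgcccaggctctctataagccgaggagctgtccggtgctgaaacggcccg
Pcsk2: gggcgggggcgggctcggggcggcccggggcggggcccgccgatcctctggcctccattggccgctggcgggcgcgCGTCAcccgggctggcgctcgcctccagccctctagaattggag
The full palindrome began at position −78 in Pcsk1 and at −68 in Scg2, counted from the start site. Pcsk1 carried a further short form from position −50 to −46, and the short form of Pcsk2 lay from −34 to −30.

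None of the 10 genes passed the test between control and βFbln5KO islets in limma, either at an adjusted p under 0.05 or at an unadjusted one. By comparison, an adjusted p under 0.05 was reached by 0.0106% of all 56605 probes and an unadjusted one by 24.7% of them, or by 6.28% of the 26612 bright probes, which passed the background test on every array. In 0 of the 10 genes did the 4 βFbln5KO arrays lie apart from the 4 control arrays, against 4.14% of those bright probes. The smallest unadjusted p among the 10 genes was 0.109, for Scg2. The median log2 fold change of the 10 genes was −0.02, and that of all such bright probes was −0.025. The arrays also differed in quality measures by genotype, with 52.6% to 56.6% of spots well above background in βFbln5KO against 56.6% to 58.8% in control and 176 to 398 against 125 to 175 spots marked as outliers, and the part of this in the values was not tested. The sign of the small differences between the groups depended on the scaling: 6 genes were lower and 4 higher in βFbln5KO islets after each array was shifted by its 75th percentile, whereas all 10 were higher after quantile normalization, with a median of 0.068 and again no gene called.

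**Figure D1:**
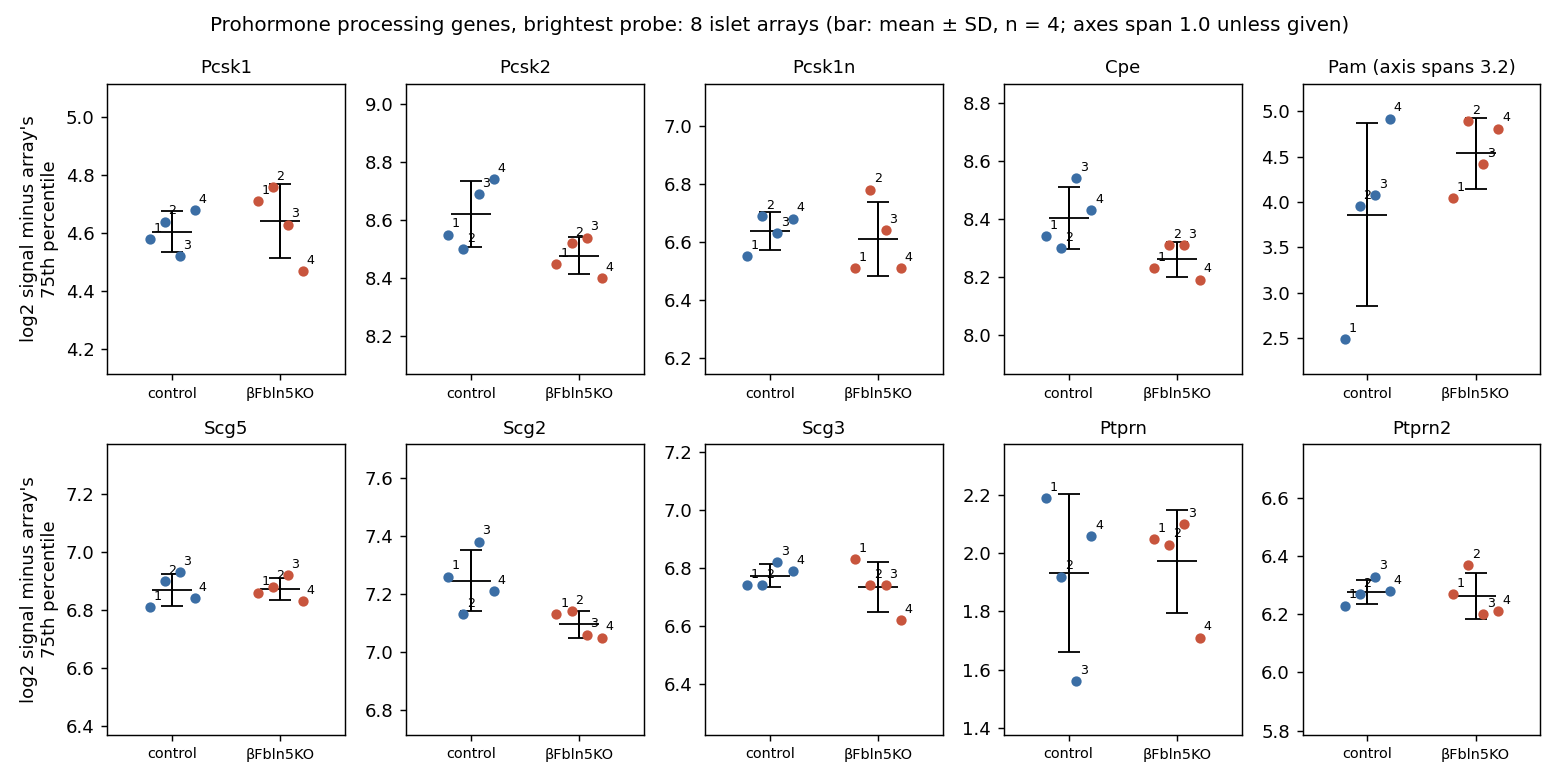
Log2 signal of the brightest probe of each gene on every array, after subtraction of the array's 75th percentile; numbers give the replicate, and bars the mean ± SD of 4 arrays. The control and βFbln5KO points overlap in all 10 panels, and Pam has the widest spread, from 2.49 to 4.92 on an axis that spans 3.2 instead of 1.0.

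Pcsk1, also called PC1/3, makes the first cut in proinsulin. Its log2 signals, given here and below relative to the 75th percentile of the array, were 4.58, 4.64, 4.52 and 4.68 on control arrays 1 to 4 and 4.71, 4.76, 4.63 and 4.47 on βFbln5KO arrays 1 to 4. Arrays 1 and 2 of the βFbln5KO group were above every control array and array 4 was below every control array. Between the groups the log2 difference was 0.039 (SE 0.074, adjusted p = 0.829, limma), and its 95% interval, from −0.13 to 0.21, corresponded to a signal between 0.914 and 1.15 times that of control.

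Pcsk2, or PC2, gave 8.55, 8.50, 8.69 and 8.74 in control and 8.45, 8.52, 8.54 and 8.40 in βFbln5KO islets. Arrays 1 and 4 of the βFbln5KO group were below every control array, and the groups overlapped. The estimated difference was −0.14 (SE 0.11, adjusted p = 0.523), with an interval from −0.40 to 0.11, or 0.758 to 1.08 times control.

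The 2 small granule proteins that act on the convertases did not pass the test either. Pcsk1n (proSAAS), which binds and inhibits Pcsk1, had signals of 6.55, 6.69, 6.63 and 6.68 in control and 6.51, 6.78, 6.64 and 6.51 in βFbln5KO islets. The groups differed by −0.025 (SE 0.087, adjusted p = 0.913), with an interval from −0.22 to 0.17. Scg5 (7B2), the chaperone that Pcsk2 needs to become active, had signals of 6.81, 6.90, 6.93 and 6.84 in control and 6.86, 6.88, 6.92 and 6.83 in βFbln5KO islets. Among the 10 genes Scg5 varied least over the 8 arrays, with an SD of 0.0432. The βFbln5KO arrays of Scg5 all lay inside the control range, and the log2 estimate was 0.0048 (SE 0.071, adjusted p = 0.981) with an interval from −0.16 to 0.17, or 0.897 to 1.12 times control.

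Partners were also compared within each array, where a shift common to the whole array cancels. Since levels of different probes cannot be set against each other, only the change of a difference between the genotypes has a meaning. A set of 4 such differences was examined, with exact two-sided permutation tests and adjustment over the 4. Pcsk1 minus Pcsk2 was higher in βFbln5KO islets by 0.18 (SE 0.082, interval −0.019 to 0.38, exact permutation p = 0.114, adjusted p = 0.229). Pcsk2 minus its chaperone Scg5 was lower, with a difference of −0.15 (SE 0.064, interval −0.31 to 0.0098, exact permutation p = 0.086, adjusted p = 0.229). Pcsk1 minus its inhibitor Pcsk1n differed by 0.064 (SE 0.063, exact permutation p = 0.429, adjusted p = 0.571) and Ptprn minus Ptprn2 by 0.053 (SE 0.18, exact permutation p = 0.80, adjusted p = 0.80). No pair passed at an adjusted p under 0.05. The smallest exact permutation p that 4 against 4 arrays allow is 0.029. A single pair at that value could not pass after adjustment over the 4, so the adjusted test could not decide on a change in a single pair. The difference for Pcsk1 minus Pcsk2 was 0.0063 after quantile normalization. Without control replicate 2 it was 0.234, with the exact permutation p at 0.0286 and 0.0571 after adjustment. For any pair, 0.0286 is the smallest p that this test allows with that array left out. Pcsk2 minus Scg5 was −0.198 without control replicate 2 (exact permutation p = 0.0286, adjusted p = 0.0571), −0.0965 without control replicate 4 and −0.074 after quantile normalization (exact permutation p = 0.429).

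Cpe, the carboxypeptidase that trims the cut ends, had signals of 8.34, 8.30, 8.54 and 8.43 in control and 8.23, 8.31, 8.31 and 8.19 in βFbln5KO islets. Arrays 1 and 4 of the βFbln5KO group lay below every control array, and the other 2 overlapped the control range at its lower end. On average Cpe differed by −0.14 (SE 0.11, adjusted p = 0.49) on the log2 scale, with an interval from −0.38 to 0.10, or 0.766 to 1.07 times control.

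Pam, the amidating enzyme, was the most variable of the 10 genes, and its 2 probes disagreed. The brighter probe, A_55_P1969156, read 2.49, 3.96, 4.08 and 4.92 in control and 4.04, 4.89, 4.42 and 4.81 in βFbln5KO islets, an SD over the 8 arrays of 0.796 against a median SD of 0.1029 over the 10 genes. Control replicate 1 was by far the lowest and control replicate 4 the highest of all 8 arrays. The log2 difference of 0.68 (SE 0.45, adjusted p = 0.429) had a wide interval, from −0.35 to 1.70, or 0.787 to 3.25 times control. It was 0.221 without control replicate 1 and 1.03 without control replicate 4, where the unadjusted p was 0.0301 and the adjusted p 0.146 in limma. With the replicate number as a block its unadjusted p was 0.0373 and its adjusted p 0.219.

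The dimmer Pam probe, A_55_P2733797, did not repeat this spread. It read 0.54, 0.35, 0.46 and 0.91 in control and 0.60, 0.65, 0.66 and 0.65 in βFbln5KO islets. Control replicate 1 was neither the lowest nor the highest control array on this probe, and the 4 βFbln5KO arrays were within 0.1 of each other. This probe gave a difference of 0.076 (SE 0.11, adjusted p = 0.757), with an interval from −0.17 to 0.32. Both probes carry RefSeq accessions of Pam, and which transcript forms each one reads was not tested.

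**Figure D2:**
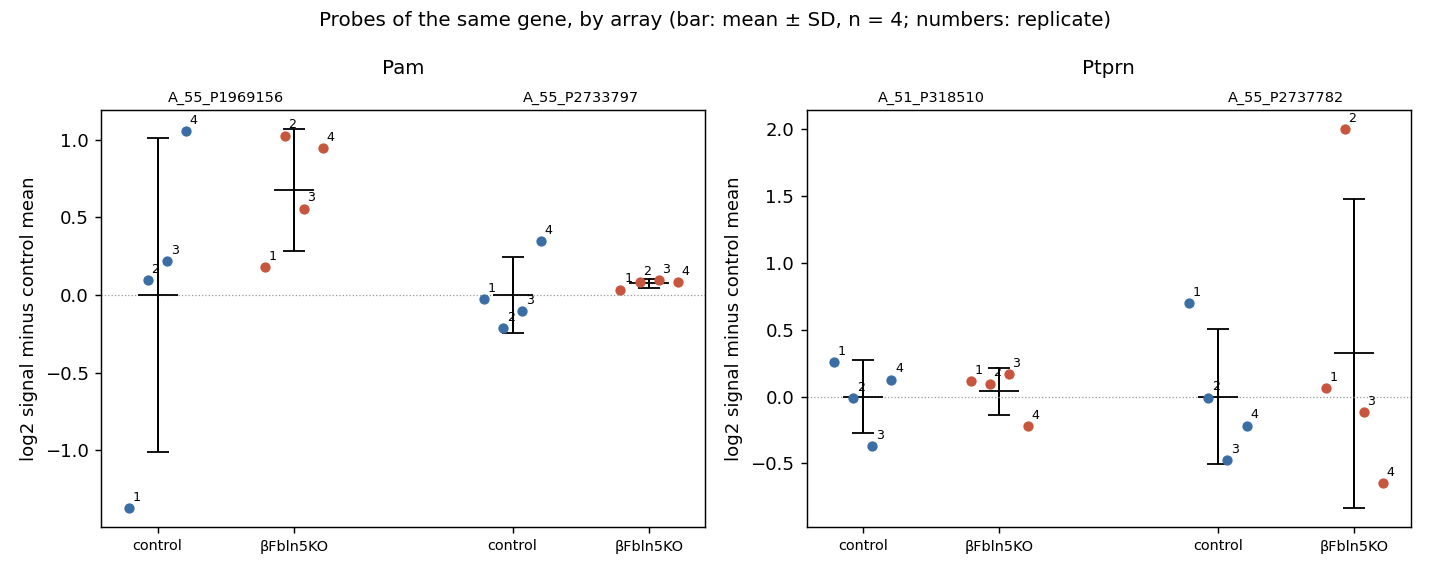
Log2 signal minus the control mean for each probe of Pam and of Ptprn, with the brighter probe of each gene on the left, 1 point per array numbered by replicate, and bars for the mean ± SD of 4 arrays. The Pam probe A_55_P1969156 spans 2.43 log2 units over the 8 arrays and A_55_P2733797 spans 0.56, while 1 βFbln5KO array stands alone on the Ptprn probe A_55_P2737782.

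Of the 2 secretogranins among the genes, Scg2 came nearest to a difference. Scg2 is a granule matrix protein and the precursor of secretoneurin. Its signals were 7.26, 7.13, 7.38 and 7.21 in control and 7.13, 7.14, 7.06 and 7.05 in βFbln5KO islets. All βFbln5KO arrays were at or below 7.14, and only control replicate 2 reached into that range. For Scg2 the estimate was −0.15 (SE 0.084, unadjusted p = 0.109, adjusted p = 0.332), with an interval from −0.34 to 0.041, or 0.79 to 1.03 times control. The unadjusted p of Scg2 was under 0.05 in 4 of 18 settings, namely normexp background correction, a filter on dim probes, the authors' deposited table and the methods' t-test, and its adjusted p was under 0.05 in none of them, the smallest being 0.164.

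Scg3, which binds chromogranin A and helps to hold granule cargo at cholesterol-rich membrane, had signals of 6.74, 6.74, 6.82 and 6.79 in control and 6.83, 6.74, 6.74 and 6.62 in βFbln5KO islets. The groups overlapped, with βFbln5KO replicate 4 lowest. The estimate for Scg3 was −0.04 (SE 0.075, adjusted p = 0.824), with an interval from −0.21 to 0.13.

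Ptprn (IA-2) and Ptprn2 (phogrin) are transmembrane granule proteins of the receptor tyrosine phosphatase family that lack most phosphatase activity and are known as autoantigens in type 1 diabetes. The brightest Ptprn probe read 2.19, 1.92, 1.56 and 2.06 in control and 2.05, 2.03, 2.10 and 1.71 in βFbln5KO islets, all of the latter inside the control range. The difference was 0.039 (SE 0.14, adjusted p = 0.915), with an interval from −0.28 to 0.35. On the second Ptprn probe, A_55_P2737782, βFbln5KO replicate 2 read −0.83, whereas the other 7 arrays lay between −3.48 and −2.13. Its estimate of 0.32 (SE 0.53, adjusted p = 0.797) had an interval from −0.89 to 1.54.

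The brightest Ptprn2 probe read 6.23, 6.27, 6.33 and 6.28 in control and 6.27, 6.37, 6.20 and 6.21 in βFbln5KO islets, a difference of −0.014 (SE 0.069, adjusted p = 0.939) with an interval from −0.17 to 0.14. The other Ptprn2 probes gave log2 fold changes of −0.16 (adjusted p = 0.519) for A_55_P1977369 and −0.15 (adjusted p = 0.568) for A_52_P50150. All 3 estimates were below 0, and all 3 intervals included it.

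**Figure D3:**
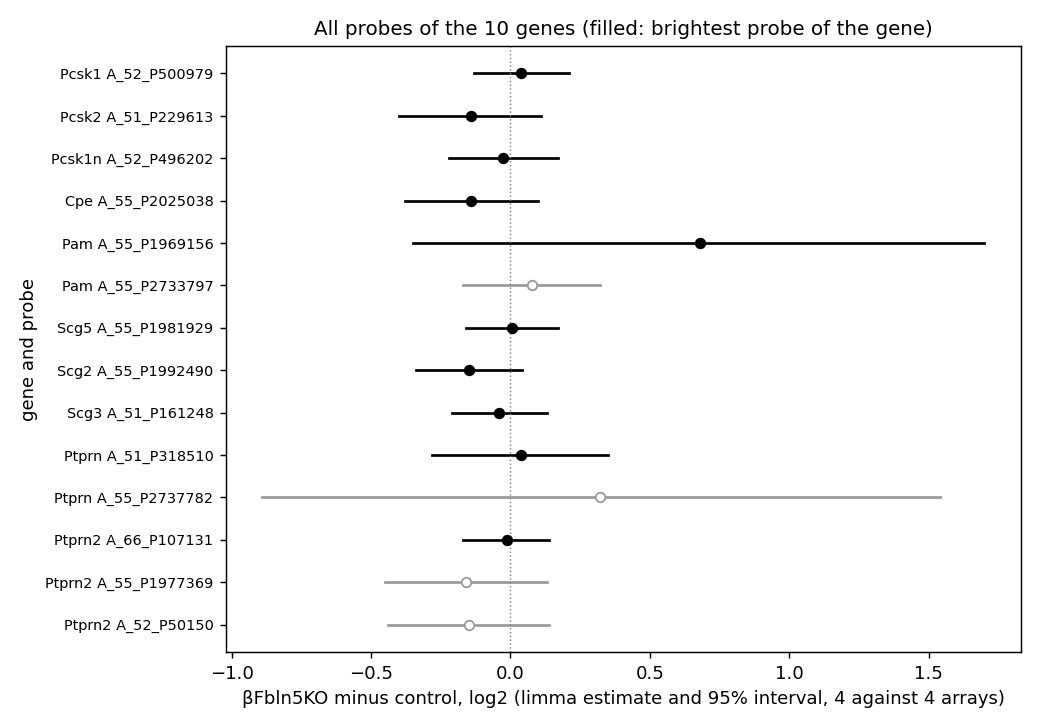
Difference between βFbln5KO and control islets in log2 signal for all 14 probes of the 10 genes, as the limma estimate with its 95% interval; filled points mark the brightest probe of each gene. All 14 intervals include 0, and the widest are those of the Pam probe A_55_P1969156 and the Ptprn probe A_55_P2737782.

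Most of the 10 genes, though not Pam, read low on 1 array. The array labelled βFbln5KO replicate 4 was the lowest of the 8 for 6 of the 10 genes, and it was below the gene's own mean for 9 of them, with a median of −0.13 on the log2 scale. On the other arrays the corresponding medians lay between −0.028 and 0.059. Without that array 4 genes were lower and 6 higher in βFbln5KO islets, the median log2 fold change was 0.0075, and again no gene was called. Over all probes, leaving it out raised the share called at an adjusted p under 0.05 in limma from 0.0106% to 20.4%. These were 11544 probes, of which 11206 were higher in βFbln5KO islets and 338 lower. On that array 56.6% of spots were well above background, against 52.6% to 53.6% on the other βFbln5KO arrays. In control the share was 56.6% to 58.8%. The same array had an Fbln5 signal within the control range. The part of any of these values in another was not tested.

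Genes whose signals followed those of a processing gene most closely were sought among 13542 other genes well above background on all 8 arrays, by the root mean square difference of log2 signals centred on each gene's mean over the 8 arrays. For Pcsk1 the nearest were Nabp2 at 0.0352, Elob at 0.0381 and Lrp3 at 0.0395, against an SD of Pcsk1 itself of 0.0978. For Pam, by its brighter probe, the nearest were Wdfy1 at 0.385, Npas4 at 0.433 and Klhl30 at 0.435, against an SD of 0.796. The log2 fold changes of these 3 neighbours of Pam were 0.35, 0.84 and 0.68, with adjusted p of 0.421, 0.0807 and 0.367 in limma. The neighbours were chosen by likeness over the same 8 arrays, so fold changes near that of Pam follow from the choice. The largest deviation of the brighter Pam probe from its mean was −1.709, on control replicate 1, which the dimmer probe did not repeat.

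The other genes of the pathway, 52 in 7 lists, were counted by their brightest probes. At an adjusted p under 0.05 in limma 0 of 52 passed, and at an unadjusted one 2 passed, both lower in βFbln5KO islets. Their median log2 fold change was −0.0029, and that of all 13650 named genes well above background on every array was −0.0082. The groups did not overlap in 4 of the 52, which were Ccdc186, Rab2a, Iapp and the proton pump subunit Atp6v0d1 (log2 difference 0.065). Beside these counts, 6.28% of the bright probes passed at an unadjusted p and 4.14% did not overlap.

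**Figure D4:**
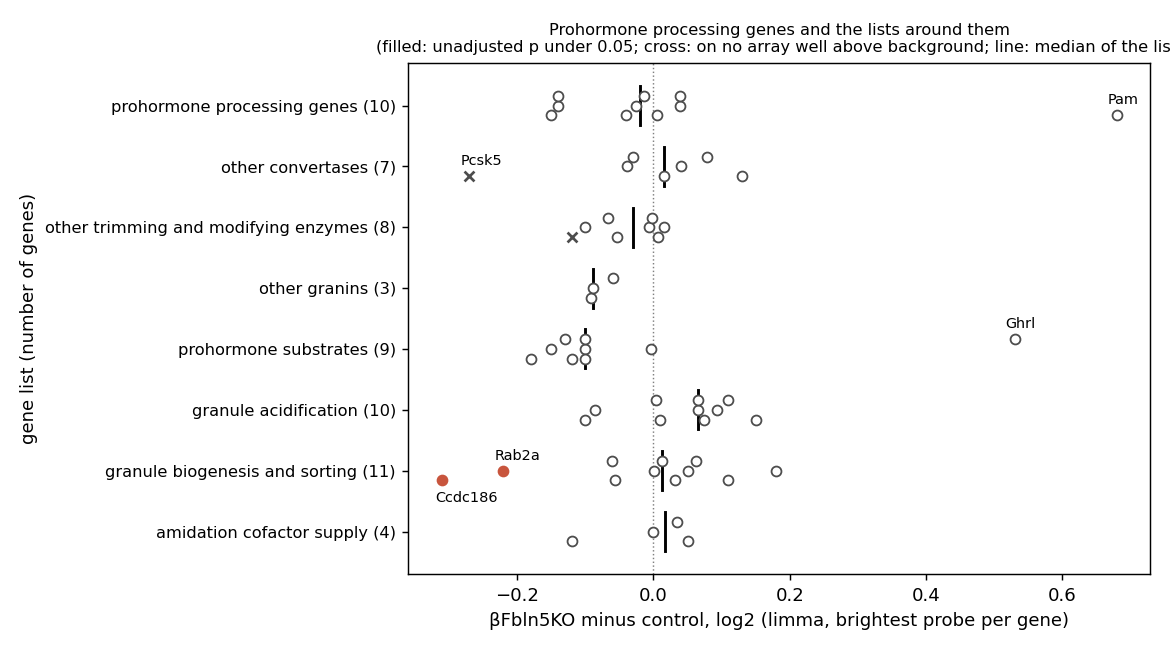
Difference between βFbln5KO and control islets in log2 signal (limma, brightest probe per gene) for the 10 prohormone processing genes and 7 lists around them; 1 point per gene, filled at an unadjusted p under 0.05, crosses for genes on no array well above background, and vertical lines for the median of a list. Filled points are seen for Ccdc186 and Rab2a alone, and most other genes lie within 0.2 of 0.

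The precursors that the enzymes act on gave no call. Of 9 prohormone genes, 8 had estimates below 0, with a median of −0.10, and none passed at an unadjusted p under 0.05, and after quantile normalization 2 were below 0, with a median of 0.10. The estimate above 0 was that of Ghrl, the ghrelin precursor, at 0.53 (SE 0.38, adjusted p = 0.482). Ins1 read 8.24, 8.11, 8.46 and 8.23 in control and 8.09, 8.16, 8.14 and 8.05 in βFbln5KO islets, which is a difference of −0.15 (SE 0.11, adjusted p = 0.493). Ins2 read 8.82, 8.82, 9.13 and 9.0 in control and 8.67, 8.86, 8.76 and 8.76 in βFbln5KO islets, which is a difference of −0.18 (SE 0.13, adjusted p = 0.464). For both insulin genes control replicate 3 was the highest array, and the groups overlapped. Without that array the estimates were −0.081 for Ins1 and −0.119 for Ins2.

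Gcg, the proglucagon gene, and Sst, the prosomatostatin gene, each had a log2 fold change of −0.10, with SE of 0.095 and 0.091 and adjusted p of 0.63 and 0.581. Iapp, the precursor of amylin, which Pam amidates, read 7.17, 7.17, 7.30 and 7.14 in control and 7.07, 7.13, 6.99 and 7.09 in βFbln5KO islets. Every βFbln5KO array of Iapp was below every control array, at a difference of −0.13 (SE 0.08, adjusted p = 0.40). After quantile normalization these estimates of Ins1, Iapp, Gcg and Sst were above 0, whereas that of Ins2 stayed below it at −0.035.

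The enzymes related to the processing genes gave no calls. Of 7 other convertases, 4 had estimates above 0 and 3 below, none past an unadjusted p of 0.05. Pcsk5 was not well above background on any array by any of its 3 probes. Of 8 other trimming and modifying enzymes 6 had estimates below 0, with Cpd, a carboxypeptidase of the trans-Golgi network, at −0.067 (SE 0.062, adjusted p = 0.604), and Cpz was not well above background on any array.

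The 3 other granins, Chga, Chgb and Vgf, had log2 fold changes of −0.092, −0.089 and −0.059, with adjusted p of 0.723, 0.643 and 0.888, and after quantile normalization 2 of the 3 were above 0. Of 10 genes of granule acidification, which sets the low pH that the convertases need, 8 had estimates above 0, with a median of 0.066 and none past an unadjusted p of 0.05. The smallest p among them was that of Atp6v1a, the catalytic subunit of the proton pump, at 0.15 (SE 0.069, unadjusted p = 0.0637, adjusted p = 0.238). Its unadjusted p was under 0.05 in 3 of 18 settings, and its estimate ranged from 0.0966 to 0.173 with 1 array left out. Of the 4 genes of copper and ascorbate supply, on which Pam depends as a copper enzyme, the smallest p was that of the copper transporter Atp7a, at −0.12 (SE 0.097, adjusted p = 0.535). With 1 array left out the Atp7a estimate ranged from −0.215 to −0.045. The value of −0.215 was that without βFbln5KO replicate 2, with an unadjusted p of 0.0137 and an adjusted p of 0.171 in limma.

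Among 11 genes of granule biogenesis and sorting, Ccdc186 and Rab2a passed at an unadjusted p under 0.05, both lower, and the other 9 did not. Rab2a is a small GTPase that acts in the maturation of dense-core vesicles, and Ccdc186 is an effector that binds the active form of Rab2. The brightest Ccdc186 probe, A_52_P338492, read −0.93, −1.10, −1.10 and −1.06 in control and −1.24, −1.21, −1.43 and −1.55 in βFbln5KO islets. Every βFbln5KO array was below every control array. The log2 estimate was −0.31 (SE 0.095, unadjusted p = 0.00993, adjusted p = 0.0751), or 0.806 times control with an interval from 0.694 to 0.936.

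The other Ccdc186 probes gave estimates on the same side. A_66_P104433 read −1.60, −1.81, −1.69 and −1.91 in control and −1.95, −2.05, −2.24 and −2.45 in βFbln5KO islets, which is a difference of −0.42 (SE 0.13, adjusted p = 0.0816), again without overlap. A_52_P288997 read −2.40, −2.88, −2.64 and −2.60 in control and −2.87, −3.00, −3.17 and −3.13 in βFbln5KO islets, which is a difference of −0.42 (SE 0.15, adjusted p = 0.12), with βFbln5KO replicate 1 just inside the control range. The 3 probes read RNA from the same 8 extractions and are not independent replicates. The brightest probe had an unadjusted p under 0.05 in 18 of 18 settings, its estimates lay between −0.36 and −0.246 over them, and its adjusted p was never below 0.0751.

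The 2 probes of Rab2a disagreed. The brighter one, A_52_P611589, read 4.24, 4.04, 4.26 and 4.21 in control and 4.01, 4.01, 4.03 and 3.80 in βFbln5KO islets, without overlap and with an estimate of −0.22 (SE 0.073, unadjusted p = 0.0137, adjusted p = 0.0855). The dimmer one, A_55_P2785477, lay between 3.46 and 3.55 on all 8 arrays, with an estimate of 0.0081 (SE 0.043, adjusted p = 0.945). The interval of the second probe, from −0.09 to 0.11, does not include the estimate of the first.

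**Figure D5:**
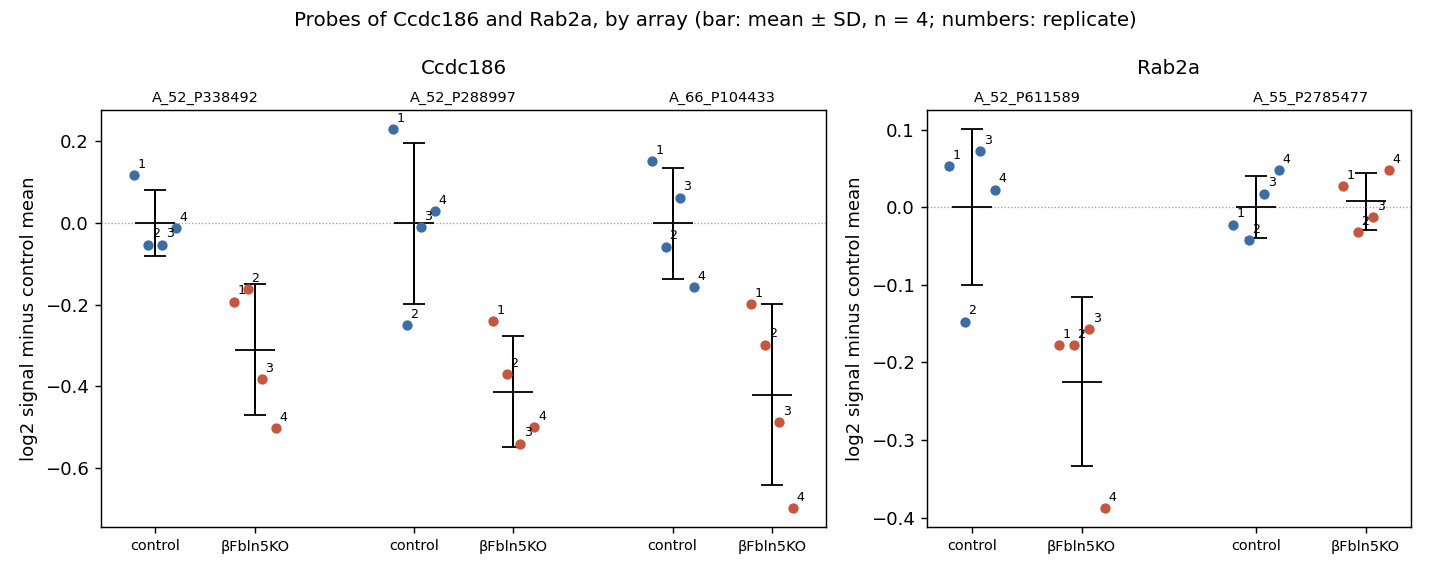
Log2 signal minus the control mean for each probe of Ccdc186 and of Rab2a, with the brightest probe of each gene on the left, 1 point per array numbered by replicate, and bars for the mean ± SD of 4 arrays. All 3 Ccdc186 probes are lower on the βFbln5KO arrays, by 0.31 to 0.42 on average, and only 1 of the 2 Rab2a probes is.

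Markers of the cells in an islet preparation were read beside these values. All 8 acinar markers, which report exocrine tissue carried along with the islets, were lower in βFbln5KO islets, none past an unadjusted p of 0.05. Their summed signal, in units of the array's 75th percentile, had a median of 1730 (1020 to 2780) over the control arrays and of 874 (610 to 1750) over the βFbln5KO arrays. For 8 β-cell markers the sum was 1200 to 1470 on control arrays against 1170 to 1220 on βFbln5KO arrays, with 6 of 8 lower, or 3 of 8 after quantile normalization. All 5 α-cell markers were lower (4 of 5 after quantile normalization), with 217 to 251 against 202 to 222 in sum. None of the markers for δ-cells, PP cells, ductal cells, endothelial cells, macrophages or mesenchymal cells passed at an unadjusted p under 0.05 in limma. Every acinar, β-cell and α-cell marker was well above background on all 8 arrays. The part of these differences in the values of the processing genes was not tested.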

How the data were processed

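Total RNA of pancreatic islets from 4 control and 4 βFbln5KO extractions was hybridised to 8 one-colour arrays, and groups were taken from the genotype label. Per the file headers and labels, the deposited scanner output is the processed signal of Agilent Feature Extraction 11.0.1.1, an intensity after background subtraction that is not normalized between arrays. The authors also deposited a table whose signal is that processed signal divided by 1 number per array, and their methods name GeneSpring. The array design names mm9, whose coordinates were not used.

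Of 59305 spots other than controls, log2 signals were taken relative to the array's own 75th percentile, values marked as outliers were left out (0.356%), and replicate spots were averaged, leaving 56605 probes. RefSeq accessions gave 32994 probes 1 gene symbol. Groups were compared with limma 3.58.1 (lmFit, eBayes with trend) in R 4.3.3 and Benjamini-Hochberg adjustment over all probes, at a threshold of 0.05, and a gene was reported by its probe with the highest mean. Spots well above background made up 56.6% to 58.8% of each control array and 52.6% to 56.6% of each βFbln5KO array, and the number of arrays limits the precision. The labels do not say whether the extractions came from separate mice, so that p-values measure the spread between extractions. The fit was tested on simulated data.

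The genes and lists were chosen with earlier results of these data known. Named were all 10 genes with all probes, in each list the genes past an unadjusted p of 0.05 (at most 4, otherwise the gene with the smallest p), Ins1, Ins2, Gcg, Sst and nearest neighbours of Pcsk1 and of the most variable gene. Chga, Vgf, Ghrl, Atp6v0d1, Pcsk5 and Cpz were named after their values were seen, and some genes of the lists are not reported here. Marker genes were read for 9 cell types of the islet and its surroundings. Alternatives were normexp (offset 50, on median signals), quantile normalization, keeping only probes detected above background on 4 or more arrays, raising dim signals to a common floor, no trend in eBayes, keeping spots marked as outliers, averaging all probes of a gene, the deposited table, the methods' t-test, a block on replicate number, and leaving out each array. Figures were drawn with matplotlib 3.10.9.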

Additional observations from a re-analysis of the deposited data

Results flagged for a closer look

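The highest and the lowest array of each group of 4 was compared with its nearest neighbour for 52 groups, in the 14 probes of the processing genes and 12 named genes of the pathway lists, and 3 groups had an array that stood apart. Chance gives about 1 in 20. On the dimmer Pam probe, A_55_P2733797, βFbln5KO replicate 1 at 0.599 lay below the nearest at 0.651, in a group that spans less than 0.1. On the Rab2a probe A_52_P611589, the array labelled βFbln5KO replicate 4 at 3.80 lay below the nearest at 4.01, and without it the log2 fold change of Rab2a was −0.169 with an unadjusted p of 0.0321 in limma. On the Iapp probe A_66_P114856, control replicate 3 at 7.30 lay above the nearest at 7.17.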

How the results depend on the processing

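No processing gene and no gene of the pathway lists was called at an adjusted p under 0.05 in limma or in the methods' t-test under any setting that gives a p. Over all probes the share called in this way was 0.0106% as reported, 11.6% with eBayes without trend and 20.4% without the array labelled βFbln5KO replicate 4, and at most 0.154% in the other settings. Of the probes called, 6184 of 6578 with eBayes without trend and 11206 of 11544 without that array were higher in βFbln5KO islets. At an unadjusted p the count of processing genes was 1 with normexp, a filter on dim probes, the methods' t-test and the deposited table (Scg2 each time) and 1 with the replicate block (Pam), and it ranged from 0 to 1 with 1 array left out. For the pathway lists, examined in this way after the data were seen, it was 4 with normexp and 4 with the methods' t-test, and ranged from 2 to 5 with 1 array left out. The median of the processing genes was 0.068 after quantile normalization and ranged from −0.047 to 0.0075 with 1 array left out. Of the 10 processing genes and the 12 pathway genes followed through every setting, those whose estimate changed sign after quantile normalization were Pcsk2 (0.077), Pcsk1n (0.068), Cpe (0.055), Scg2 (0.044), Scg3 (0.057), Ptprn2 (0.068), Chgb (0.083), Iapp (0.044), Ins1 (0.108), Gcg (0.054) and Sst (0.10), and Ptprn minus Ptprn2 was −0.031. Scg3 was 0.0036 with normexp. With 1 array left out, estimates crossed 0 for Pcsk1 (−0.00065 to 0.0972), Pcsk1n (−0.083 to 0.010), Scg5 (−0.014 to 0.025), Ptprn (−0.084 to 0.127), Ptprn2 (−0.051 to 0.0059) and Ptprn minus Ptprn2 (−0.087 to 0.155). The cause was not tested. The same-numbered arrays of the 2 groups lay in the same column of the slide. They did not all deviate together (correlations of 0.20, 0.30, −0.22 and −0.022). Whether they were paired in any other way cannot be told from these values. With the replicate block 2 probes in all were called at an adjusted p in limma against 6 without it. The use of 8 arrays on 1 slide limits every interval given, and a p that misses the threshold does not show equal expression.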
